A study of Drosophila melanogaster with 3 samples.

Results

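The Hedgehog pathway genes hh, ptc, smo, ci, cos, fu and Su(fu), with the paired engrailed genes en and inv, were examined in peak lists of the tagged transcription factor shaven (sv). These 9 genes were listed by name, with no threshold on a measured value but with earlier results of these data known, and all 9 were found among the 13945 protein-coding genes of the annotation. The assay was ChIP-seq, which sequences the DNA recovered with a precipitated protein, on whole wandering larvae of the third instar of Drosophila melanogaster with both sexes pooled. The strain is named sv-GFP in the labels, with an insertion targeting D. melanogaster sv. The transgenic line stably expresses sv-RD fused to a C-terminal GFP. The sample descriptions name an antibody against GFP while the antibody field names sv. The 3 biological replicates form a single group, so no comparison between groups could be tested and every value is a description. The labels do not say whether native sv protein was also present or what drives the transgene, their age field reads unknown, and all tissues of the larva were pooled. Read depth is unknown, and a peak in whole larvae cannot be assigned to a tissue.

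Hedgehog is a secreted ligand. In imaginal discs it is made by cells of the posterior compartment, where the homeodomain proteins Engrailed and Invected are expressed, and it acts on neighbouring anterior cells. There it binds Patched, which otherwise holds back the membrane protein Smoothened. Active Smoothened acts through a cytoplasmic complex of Costal-2, Fused and Suppressor of fused on Cubitus interruptus (Ci), the transcription factor of the pathway, which is cut to a repressor when no ligand is present. en and inv are adjacent genes that share regulatory sequence and are known targets of Polycomb repression. sv is a Pax gene known for its part in the eye and in the bristle lineage.

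Each gene was given a window of the gene and 5 kb either side, and a peak counted where its summit lay in that window. Peaks were ranked within each list by the authors' signal value, with rank 1 the strongest. The optimal set, the authors' peaks that passed their reproducibility threshold, held 3823 peaks and was identical to the strongest 3823 of the 30000 in the relaxed list of the pooled replicates. The relaxed lists include background by design, and peaks below rank 3823 did not pass the threshold.

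The sequences below are those around the peaks of smo, which lay inside the optimal set, and around the strongest peaks of hh and ci, which lay just below it. They show a start site that each of these peaks covers, though not every one. Each has 300 bases of the plus strand of dm6, from the NCBI Release 6 assembly, and is written 5′ to 3′. Capitals mark matches, on either strand, to GAGAG (the GAGA factor), GCCAT (the Polycomb recruiter Pho) or TATCGATA (DREF). Bases are counted from 1 at the left end.
smo, rank 2491, chr2L:286479-286778: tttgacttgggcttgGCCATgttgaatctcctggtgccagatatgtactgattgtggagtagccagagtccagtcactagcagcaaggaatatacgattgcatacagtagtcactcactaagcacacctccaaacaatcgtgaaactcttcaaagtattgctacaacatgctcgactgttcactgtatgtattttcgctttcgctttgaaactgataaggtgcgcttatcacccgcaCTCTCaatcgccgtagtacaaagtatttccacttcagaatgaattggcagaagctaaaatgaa
smo, rank 2892, chr2L:283171-283470: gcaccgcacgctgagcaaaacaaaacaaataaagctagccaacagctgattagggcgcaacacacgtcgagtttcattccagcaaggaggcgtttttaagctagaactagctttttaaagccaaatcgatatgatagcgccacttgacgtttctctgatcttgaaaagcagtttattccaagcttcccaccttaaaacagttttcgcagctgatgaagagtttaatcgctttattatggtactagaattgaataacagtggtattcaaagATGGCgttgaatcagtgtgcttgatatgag
hh, rank 4111, chr3R:23127741-23128040: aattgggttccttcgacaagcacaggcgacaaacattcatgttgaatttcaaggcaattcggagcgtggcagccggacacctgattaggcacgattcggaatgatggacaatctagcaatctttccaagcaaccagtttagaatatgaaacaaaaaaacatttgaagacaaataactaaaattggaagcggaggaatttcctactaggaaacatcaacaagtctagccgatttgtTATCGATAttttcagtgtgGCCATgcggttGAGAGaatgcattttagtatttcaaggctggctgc
ci, rank 4042, chr4:43509-43808: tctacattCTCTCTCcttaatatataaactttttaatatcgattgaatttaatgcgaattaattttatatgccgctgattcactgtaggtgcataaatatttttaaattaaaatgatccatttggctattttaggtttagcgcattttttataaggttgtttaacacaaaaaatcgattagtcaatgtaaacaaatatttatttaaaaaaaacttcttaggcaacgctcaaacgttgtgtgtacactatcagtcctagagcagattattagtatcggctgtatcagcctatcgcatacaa

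None of these 4 windows shows the start of the Hedgehog pathway gene itself. Each holds a start of a neighbouring gene on the minus strand. Both facts follow in part from which peaks were printed and where the windows, not centred on the summits, were placed. The strongest peaks of ptc, en and inv, in introns or intergenic sequence, are not shown. Nor are those of cos, fu and Su(fu), which lie at the starts of these genes. In the first sequence of smo the summit is base 151 and a start of CG3625 is base 53. That peak also covers the plus-strand start of an antisense RNA gene, asRNA:CR46263, at 286383, which lies left of the printed sequence. In the second the start of CG11601 is base 99, with the summit 2 bp upstream of it. At hh the summit is base 21 and the start of CG31457 is base 241, and the DREF match begins at base 236 and so runs across that start. At ci the summit is base 231 and a start of PlexB, which encodes a plexin receptor, is base 270. No roles are given for the genes known only by CG numbers.

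The windows of the 9 genes held 5 optimal summits, 2 at ptc, 2 at smo and 1 at en, and none lay inside the genes. Over the 183 kb of these windows that is 2.74 per 100 kb, close to the 2.86 of the chromosome arms as a whole. Of the 9, 3 (ptc, smo and en) had at least 1 optimal summit in the window, against 45.5% of all protein-coding genes and 51.6% of the 8266 genes whose windows were within the members' range of 11.6 to 45.2 kb. With 9 genes, a share of 33.3% is near the background and is no result about them. Within the gene itself, 0 of the 9 had one, against 9.94% of all protein-coding genes and 12.8% of those with windows in the same range, which is likewise too few to tell apart. Within 500 bp of a start of their own, 0 of the 9 had one, against 19.5%. Of the 5 summits, 1, that of en, was nearer to a start of the listed gene than to that of any other protein-coding gene.

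The strongest pooled peak of each window had a median rank of 4042 over the 9 genes. The median was 4601 over all protein-coding genes, counting the 1521 without any pooled peak as weaker, and 3597 over those with windows of similar length. The order from the strongest was en (1176), ptc (1829), smo (2491), inv (3873), ci (4042), hh (4111), cos (6882), fu (9612) and Su(fu) (15725). The strongest peak of en ranked above that of 79.7% of protein-coding genes, and the strongest of Su(fu) above that of 22.1%. Just inside the threshold, the weaker peaks of smo and ptc had ranks 2892 and 3131, with signals of 87.5 and 82.9. Just outside it, inv, ci and hh had signals of 72.0, 70.0 and 69.3, where the lowest signal in the optimal set was 72.6. The next gene, cos, was further away, with a signal of 47.1.

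**Figure D1:**
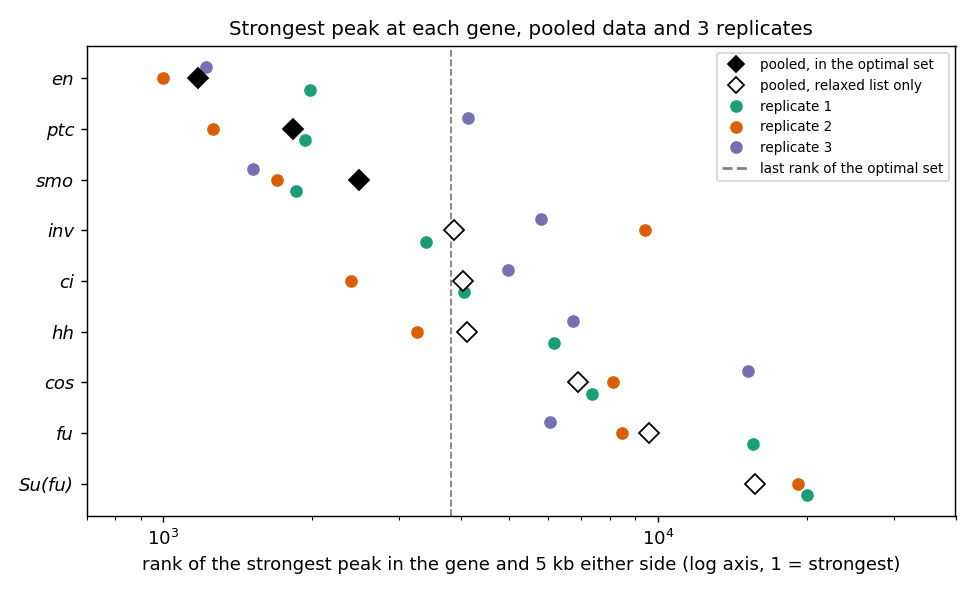
Rank of the strongest peak in each gene and 5 kb either side, on a log axis with the strongest to the left, for the pooled data (diamonds, filled where the peak is in the optimal set) and the 3 replicates (circles); the strongest peak of a window need not be the same in each list. The 3 genes with an optimal peak lead, inv, ci and hh sit just beyond the dashed line at rank 3823, and the order of inv, ci and hh differs between replicates.

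In the replicates, the count of genes with a summit among the strongest 3823 peaks varied from 2 to 5. Replicate 1 had 4 of the 9 (en, inv, ptc and smo), against 43.9% of protein-coding genes. Replicate 2 had 5 (ci, en, hh, ptc and smo), against 45.0%. Replicate 3 had 2 (en and smo), against 46.3%. The mean was 3.67 ± 1.53 genes (SD, n = 3). en and smo were present in all 3 replicates, although at smo no single peak was. Of the 5 optimal summits, 1 was found in all 3 replicates, that is, had a summit within 200 bp among the strongest 3823 of each, against 60.6% of all optimal summits. The other 4 lie in ranks 1829 to 3131, where 39.4% of 1303 optimal summits were found in all 3. The replicates went into the pooled list and are not independent of the optimal set.

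For the ligand gene hh (FBgn0004644, chromosome 3R from 23128169 to 23141906, minus strand), no optimal summit lay in the window, and the nearest one was 10142 bp from the gene. The strongest of its 7 pooled peaks, at rank 4111, lay 408 bp past the 3′ end of hh, in the sequence shown above, and 220 bp downstream of the start of CG31457. This peak ranked 6168, 3253 and 6744 in replicates 1, 2 and 3, so it was among the strongest 3823 in replicate 2 alone. A second peak, at rank 5805, lay 17 bp downstream of the same start. Inside hh there were 2 intronic peaks, at ranks 8337 and 13801. hh was the only one of the 9 genes with no pooled peak within 500 bp of its own start.

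The receptor gene ptc (FBgn0003892, chromosome 2R from 8649649 to 8665223, plus strand) had 2 optimal summits, both in an intron of the next gene, Acsl, which encodes an acyl-CoA synthetase. The stronger peak, from 8668969 to 8669488, had its summit 4006 bp past the end of ptc and 1494 bp upstream of the nearest start, an internal one of Acsl. Its signal was 116 in the pooled data, and it ranked 1931 in replicate 1, 1260 in replicate 2 and 5611 in replicate 3. The weaker peak had its summit 4217 bp past the end of ptc. It had the same nearest summit in replicate 1, at rank 1931, and ranked 2410 in replicate 2 and 26063 in replicate 3. The intervals of the 2 peaks overlap, and replicate 3 ranked both lowest.

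ptc also had the densest cover of pooled peaks among the 9 genes, with 21 or 8.21 per 10 kb, where the arms as a whole had 2.24 per 10 kb. The arm figure covers all sequence and not gene windows, and of the 9 windows only that of inv, at 1.99, was below it. The density was not computed over the windows of other genes. Without its 2 optimal peaks there were 19, or 7.43 per 10 kb. Among the 9 genes ci followed, with 6.21 per 10 kb. The window of ptc reaches into Acsl, where several of the 21 peaks lay. Some peaks close to each other had the same nearest replicate summit. Inside ptc the strongest were intronic, at ranks 4433, 4543 and 5291. The first of these lay 4754 bp downstream of the start and ranked 4295, 4185 and 7523 in the 3 replicates, and the second had no nearby summit in replicate 2. The peak at the ptc start, 200 bp upstream, ranked 7660 and had no summit within 200 bp in replicate 3. These 19 were below the threshold.

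smo (FBgn0003444, chromosome 2L from 277582 to 282167, plus strand), which encodes the signal transducer that Patched holds back, had 2 optimal summits past its 3′ end. The summit at rank 2491, with a pooled signal of 95.6, lay 4462 bp beyond smo and 98 bp upstream of a start of CG3625. It ranked 1856 in replicate 1, 5239 in replicate 2 and 1520 in replicate 3. The summit at rank 2892, with a signal of 87.5, lay 1104 bp beyond smo and 2 bp upstream of the start of CG11601. It ranked 4486 in replicate 1, 1754 in replicate 2 and 3084 in replicate 3. Each peak thus fell short in 1 replicate, and not in the same one. The start of smo, which is 370 bp from a start of CG17078 on the opposite strand, had a weaker peak 177 bp upstream, at rank 5821, with ranks 4592 and 4711 in replicates 1 and 2 and no nearby summit in replicate 3.

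**Figure D2:**
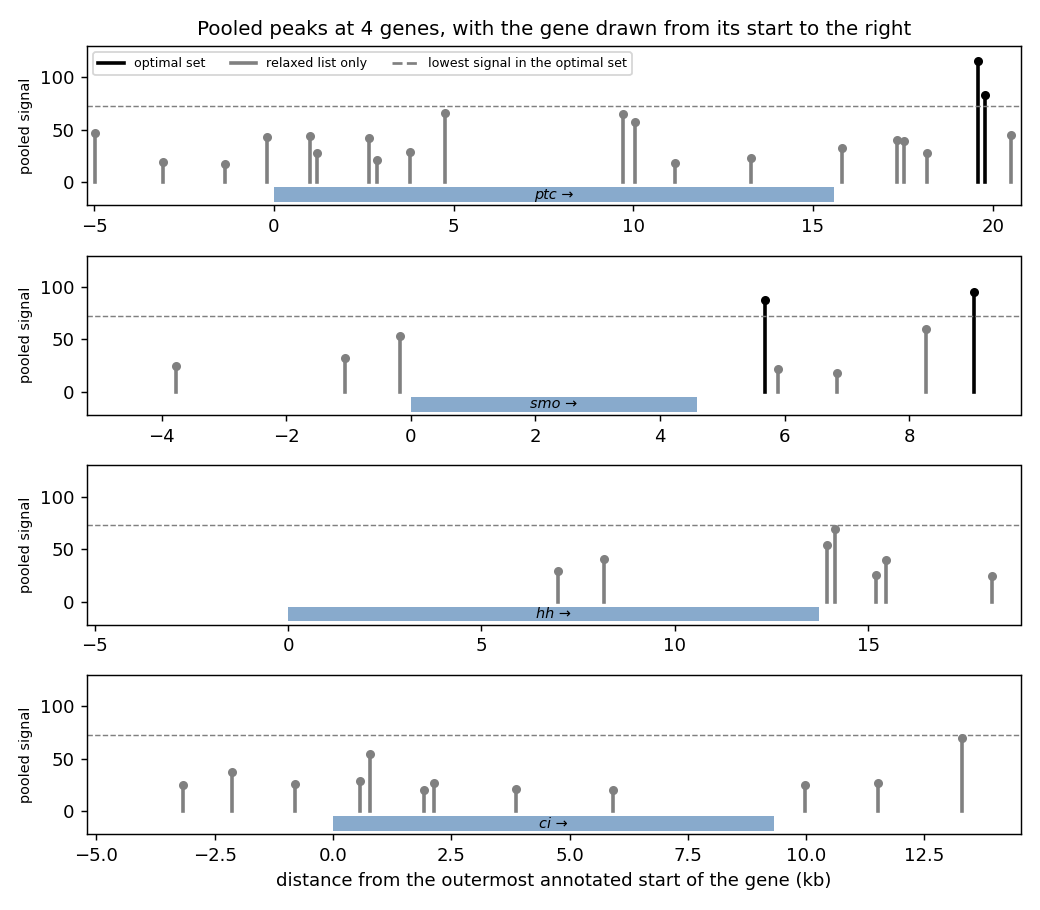
Pooled signal (authors' value) of every pooled peak in the windows of ptc, smo, hh and ci, by distance in kb from the outermost start of the gene, with the gene (blue bar) drawn from its start to the right; the dashed line is the lowest signal in the optimal set, 72.6. The strongest peaks lie past the 3′ end in all 4 windows, and no peak over a blue bar reaches the line.

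Judged by the strongest peak of each window, cos, fu and Su(fu), the genes of the cytoplasmic complex, came last among the genes listed. Their windows were short, at 14.94, 13.45 and 11.6 kb, though those of smo (14.6 kb) and en (14.2 kb) were similar. Among peaks within 500 bp of a start, that of cos was stronger than those of en (rank 7516), ptc (7660) and inv (10369). It was weaker than those of ci (5688) and smo (5821). The order is therefore no result about the complex. cos (FBgn0000352, chromosome 2R), which encodes a kinesin-like scaffold, had its strongest peak at rank 6882, 110 bp upstream of its start and 38 bp downstream of the start of the divergent gene Dhx15, an RNA helicase gene. It ranked 9310 and 11759 in replicates 1 and 2 and had no summit in replicate 3. A peak of nearly the same signal, at rank 6954, lay 15 bp upstream of a start of Dscam1, a cell surface receptor gene of neurons. fu (FBgn0001079, chromosome X), which encodes a protein kinase, had its strongest peak 52 bp upstream of its start, at rank 9612, and ranks of 23072, 8484 and 19036 in the replicates. Su(fu) (FBgn0005355, chromosome 3R), which encodes an inhibitor of Ci, had its strongest peak 63 bp upstream of its start, at rank 15725. That peak had a nearby summit in replicate 2 alone, at rank 20383. The nearest optimal summit was 8919 bp from cos, 10563 bp from fu and 35743 bp from Su(fu). The median over all protein-coding genes was 6416 bp.

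ci (FBgn0004859, chromosome 4 from 47710 to 57041, minus strand), the gene of the pathway's transcription factor, had no optimal summit among 12 pooled peaks. Its strongest, at rank 4042, lay 3971 bp past its 3′ end, at the PlexB start shown above. It ranked 4059, 8347 and 4978 in the 3 replicates and so missed the strongest 3823 in each. The peak at the start of ci itself was next, 70 bp downstream, at rank 5688, with ranks of 9144, 2391 and 12459. Replicate 2 alone placed the start of ci among its strongest 3823. The nearest optimal summit on chromosome 4 was 12263 bp away.

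Across the 8 genes with a pooled peak within 500 bp of a start of their own, that peak had a median rank of 7588, from 5688 at ci to 15725 at Su(fu). For cos, smo and Su(fu) another gene starts within 500 bp, at 72, 370 and 275 bp, so the peak cannot be assigned to either gene. The same is true of fu, where CG6659 starts 469 bp away. The starts of ci, ptc, en and inv have no protein-coding neighbour that near. An antisense RNA gene, asRNA:CR43957, does start close to ci. A weaker pooled peak, at rank 14024, lay 23 bp upstream of its start and 143 bp upstream of that of ci. The peak at the start of ci therefore has the same limit.

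en (FBgn0000577, chromosome 2R from 11524006 to 11528210, minus strand) had the strongest peak of the 9 genes and the only optimal one found in all 3 replicates. It extended from 11529370 to 11529889, with its summit in intergenic sequence 1420 bp upstream of the start of en and a pooled signal of 150, at rank 1176. It ranked 1976 in replicate 1, 997 in replicate 2 and 1221 in replicate 3, with replicate summits within 50 bp of the pooled one. The sequence just upstream of en is known to hold Polycomb response elements, to which the GAGA factor and Pho bind. The span of 260 bp either side of the summit was added after the data were seen. Within it, GAGAG occurred 6 times on either strand, overlapping matches counted apart, and 5.07% of the 3823 optimal summits had at least as many. GCCAT occurred 3 times, and 6.72% of optimal summits had at least as many. Within 50 bp of the summit, GAGAG occurred 3 times and GCCAT was absent, where 9.73% and 14.8% of optimal summits had a match to the former and the latter. The same span had 49.5% GC, where the median of optimal summits was 33.7%, and the motif shares were not matched for GC. A match is not a bound site, and whether this peak lies in a Polycomb response element was not tested.

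The other 4 optimal summits had 0 to 1 GAGAG matches within 260 bp and 0 to 3 of GCCAT, the stronger peak of smo having 3 as en did. The strongest peak of Su(fu), at rank 15725 and so not optimal, also had 3 of GCCAT, with 1 within 50 bp. Those of hh, ci, cos, fu and inv had 0 to 1 of GCCAT within 260 bp. Further motifs were sought in the same way at the summits of the 9 genes, the Ci consensus GACCACCCA, the homeodomain site TAATTA, motif 1 of promoters (GGTCACAC) and the paired-domain core GTCACGC. Within 260 bp they were held by 0.183%, 33.3%, 6.96% and 2.54% of all optimal summits. At the 5 optimal summits the only match among these was 1 GTCACGC, at the weaker peak of ptc. DREF, present at 8.55% of optimal summits, had a match at none of the 5.

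inv (FBgn0001269, chromosome 2R from 11474465 to 11509695, plus strand) lay just under the threshold. Its strongest peak, at rank 3873 with a signal of 72.0, was in an intron 24851 bp downstream of the nearest start of inv. It ranked 3398 in replicate 1, 10139 in replicate 2 and 6823 in replicate 3, so replicate 1 alone had it among the strongest 3823. The peak at a start of inv, 163 bp upstream, ranked 10369 and had no summit in replicate 1. The peak at the start of en, 129 bp upstream, ranked 7516 in the pooled data and 10372, 14408 and 11829 in the replicates. At both genes the start was therefore weaker than another peak of the same locus.

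The interval from the outer end of inv to the outer end of en spans 53.7 kb, or 63.7 kb with 5 kb either side. It held 1 optimal summit, that upstream of en, which is 1.57 per 100 kb where the arms as a whole had 2.86 per 100 kb. A rate from 1 peak is too little to tell apart from that of the arms and is no result about the interval. Between the outer ends of the genes there was none. Of the 15 pooled peaks, 5 lay in inv, 4 between the genes, 1 in en, 2 beyond inv and 3 beyond en. Apart from the optimal peak, their median rank was 21305. The number of pooled peaks, 2.35 per 10 kb, was close to the 2.24 of the arms as a whole.

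**Figure D3:**
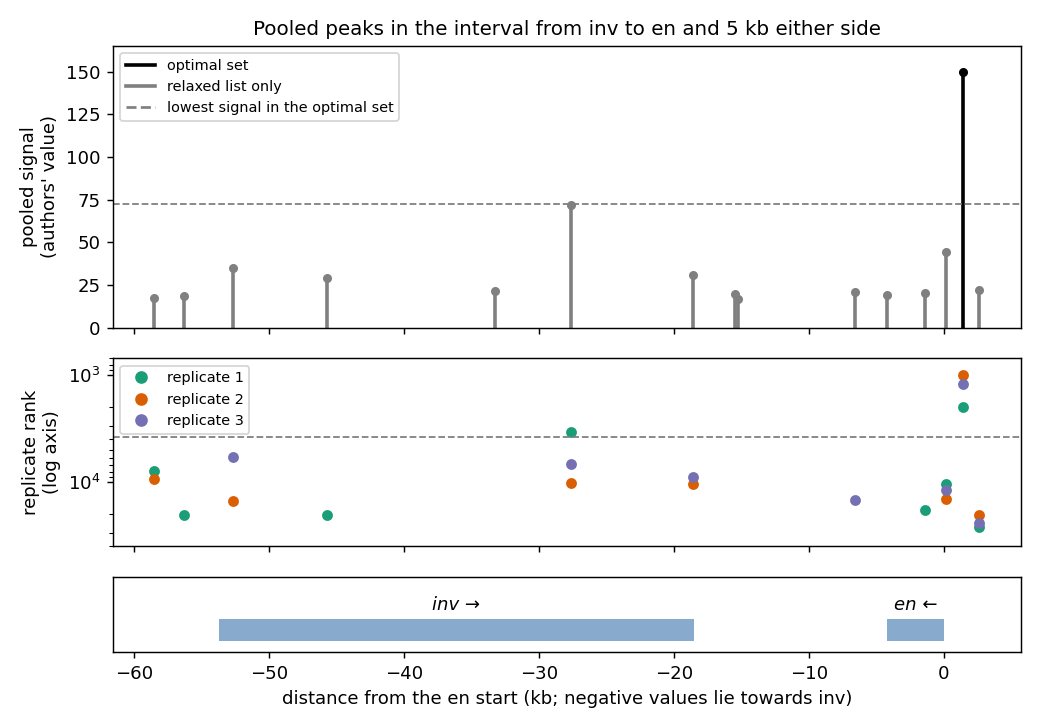
Pooled signal of the 15 peaks of the en and inv interval (top), ranks of the nearest summit within 200 bp in the 3 replicates (middle, log axis) and the 2 genes (bottom), by distance in kb from the en start. The peak upstream of en, at a signal of 150, is the only one above the dashed line at 72.6, and its 3 replicate ranks lie closer together than those of the intronic peak of inv.

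The peak of en stood far from other optimal peaks. The next one towards inv was 78.8 kb away, at rank 2413, in the 3′ UTR of another gene, qvr. Its nearest protein-coding start, 1218 bp away, was one of E(Pc), a gene named for its enhancement of Polycomb mutants, and the summit lay upstream of it. On the other side the next was 64.1 kb away, at rank 290, in an intron of tou, a chromatin factor gene, 566 bp upstream of one of its starts. Of the 3817 distances between neighbouring optimal summits, 89.8% were shorter than the first and 86.2% shorter than the second, and the median was 11.5 kb. The peak of tou ranked 281, 217 and 1171 in the replicates, and the peak near E(Pc) 2244, 5485 and 2666.

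Other genes of the pathway and its surroundings held optimal peaks more often than the 9 core genes, though their windows were longer, with medians of 22.2 and 14.9 kb. Of 43 such genes, listed by role, 32 (74.4%) had an optimal summit in the window. Of the 2114 protein-coding genes with windows between this list's quartiles, 16.6 and 42.3 kb, 59.2% had one. The 43 windows themselves run from 11.7 kb at rasp to 142 kb at hth. The shares here and below are therefore not fully matched for length. Over the 43 genes, the median rank of the strongest peak was 1549. Inside the gene, 17 of the 43 (39.5%) had a summit, against 27.2% of the same 2114 genes. The strongest summit was nearest to a start of the listed gene itself in 15 of the 32, against 44.6% of the 1251 genes of that length range with a summit. It was found in all 3 replicates in 27 of the 32, against 71.5% of those 1251. The lists were chosen with earlier results of these data known, and the difference from the 9 genes was not tested.

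The counts by role, here and below, cover few genes with windows of unlike length and are no result about a role. Beside them stand shares of 45.5% over all protein-coding genes and 59.2% over the 2114 of the length range above. Of 9 genes for release and spread of the ligand, 8 had an optimal summit. The strongest were at dlp, a glypican gene, in an intron at rank 455, and in the windows of botv (rank 590) and sfl (rank 644), enzymes of heparan sulfate synthesis. The peak of botv lay 33 bp upstream of CG15111, and that of sfl in an intron of MCU. disp, which encodes the protein that releases Hedgehog, had a peak at rank 2541, 168 bp upstream of its start and 106 bp from that of ECSIT. The co-receptor genes ihog and boi had 1 and 2. The peak of ihog, at rank 2172, lay 63 bp from the start of Gas41, and 1462 bp upstream of its own start. The stronger peak of boi, at rank 3396, lay inside boi, 66 bp upstream of one of its starts and 2 bp downstream of a start of z.

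Among 9 genes for kinases and receptor trafficking, 7 had an optimal summit, with 2 peaks at rank 20 or above. The window of Gprk2, a kinase gene that acts on Smoothened, held the peak at rank 14, at the start of PNPase and 594 bp upstream of a start of Gprk2. gish, a casein kinase gene, had the peak at rank 20, inside the gene and 164 bp upstream of one of its starts. sgg, the GSK3 gene, had one at rank 147, 194 bp upstream of a start. These peaks kept ranks of 11 to 191 in all 3 replicates. Of 6 genes for Ci ubiquitin ligases and its cofactor, 4 had a summit. SkpA (rank 208) had it at the start of Hmt4-20, nej, the CBP cofactor gene, 666 bp upstream of its own start (rank 409), and rdx, a ligase adaptor gene, in an intron (rank 1178) with 6 optimal summits in all.

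Of 7 target genes of the imaginal discs, 3 had an optimal summit, and their strongest peaks had a median rank of 4128. dpp, the BMP ligand gene, had an intronic peak at rank 1443, and vn, an EGFR ligand gene, one at rank 1549. In the window of kn, a transcription factor gene, the peak at rank 1522 was 41 bp upstream of BEAF-32, an insulator protein gene. wg, ara, caup and mirr had none. The list of 10 partners and regulators of en and inv includes their neighbours tou and E(Pc), whose peaks are described above. Of these 10 genes, 8 had an optimal summit. The strongest were at ph-p (rank 16, 476 bp upstream of a start), Trl, the GAGA factor gene (rank 23, in an intron), and in the window of Pc (rank 67, at the start of CG11309). ph-p had 9 optimal summits in its window. exd and pho had none.

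**Figure D4:**
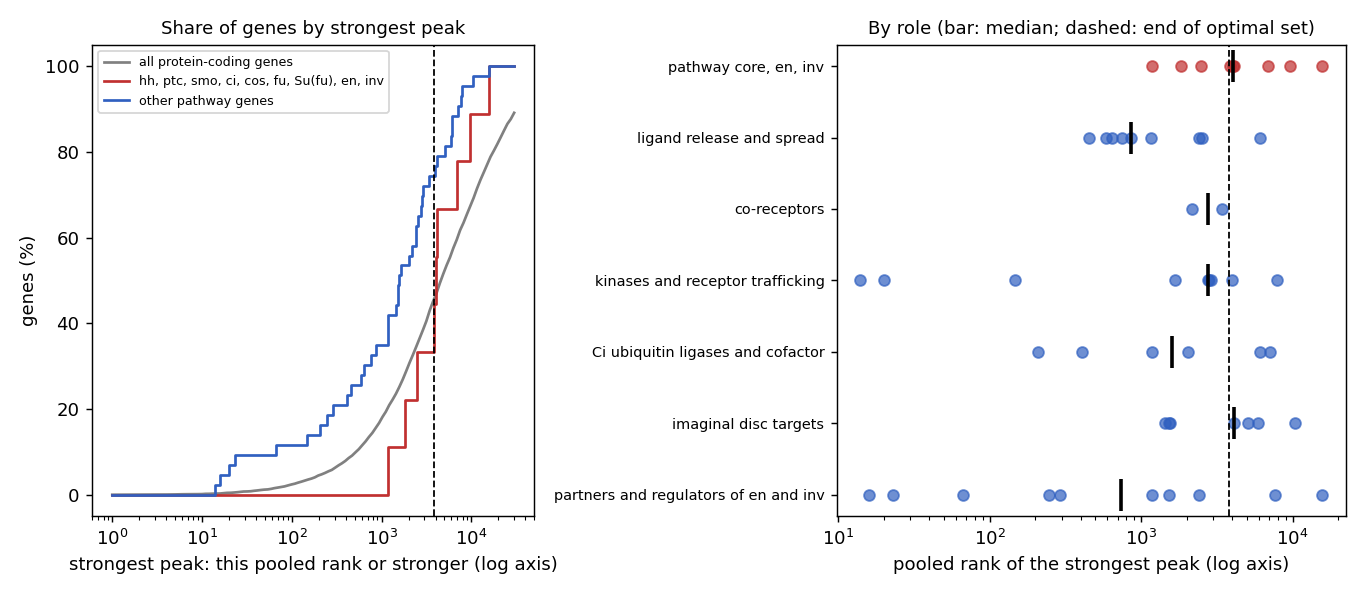
Left, the share of genes (%) whose strongest pooled peak has the given rank or a stronger one, for all protein-coding genes, the 9 genes and the 43 other pathway genes; right, the rank of the strongest peak of each gene by role, with a bar at the median and a dashed line at rank 3823. None of the 9 genes has a peak stronger than rank 1176. The genes for ligand spread have a median of 862, and the regulators of en and inv, with the neighbours tou and E(Pc) among them, one of 738.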

How the data were processed

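The data were dm6 peak lists from anti-GFP ChIP-seq of 3 replicates. Per the file manifests, the authors deposited a relaxed list for each replicate and for the pooled replicates, made against a shared control, and an optimal set passing a reproducibility threshold. The aligner, peak caller and threshold are not stated in the labels or headers. The deposited signal value ranked peaks within a list only, since how it scales between libraries is not stated. The deposited −log10 q-value was the same for every optimal peak and was not used. Read depth is unknown, so no counting interval is given.

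Genes came from Ensembl release 115 (BDGP6.54) and sequence from NCBI Release 6, whose chromosome lengths hold every dm6 peak and gene. dm3 lists were not used here, since no dm3 annotation was used. Counts were made in Python 3.11.15 with pandas 2.3.3, tested on simulated summits. A peak counted as promoter within 500 bp of a start, and motifs were sought 50 and 260 bp either side of each summit, the wider span being added after the data were seen. No statistical test was made, because the design has 1 group. The replicate numbers name biological replicates, per the labels.

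The members and lists were chosen with earlier results of these data known. Named genes are the 9 members, the gene with the start nearest to each optimal summit, each member's strongest relaxed peak where it has no optimal one, and up to 3 leading genes of each role. disp, the weaker relaxed peaks, other pathway genes without a summit, tou, E(Pc), Dscam1, CG17078 and CG6659 were picked with values in view. The alternatives tried were other flanks, match distances and numbers of replicate peaks, the strongest 1911 optimal peaks, any overlap of peak and window, and leaving out each replicate.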

Additional observations from a re-analysis of the deposited data

How the results depend on the processing

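Counts of peaks at 9 genes are small, so a change of 1 peak moves them. With flanks of 2 kb the optimal summits at the 9 genes numbered 2, at smo and en, and with flanks of 10 kb 8, with cos added. With the gene body alone, 0 of the 9 genes and 0 summits were counted, with 17 of the 43 other pathway genes and 1386 protein-coding genes. In the strongest 1911 optimal peaks there were 2 summits, at ptc and en, and 4076 protein-coding genes had one. The optimal set could not be called again without a replicate, so leaving one out meant keeping the optimal summits found in both others. That gave 2 to 3 optimal summits at the 9 genes: smo and en remained without replicate 1 or 2, and ptc and en without replicate 3. The number found in both others was, by that construction, the same 2 to 3 of 5. With the strongest 7646 replicate peaks, 4 of the 5 were found in all 3 replicates, and with the whole relaxed lists, which contain background, 5. The en and inv interval held 1 optimal summit under every alternative run on it (the strongest 1911 peaks, overlap of intervals, and each replicate left out). Of 43 alternative values, 27 stayed within 1.5 times the reported count and 16 did not. No paired analysis was possible because there is 1 group. The lists hold no read counts, so no counting error can be given for a rank, and the replicates share a control and enter the pooled list.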
